A study of Mus musculus with 5 samples.

Results

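Interferon-stimulated genes are the genes that cells switch on when they sense interferon, and they encode much of the antiviral state. A list of 44 such genes of the mouse was followed, gene by gene, through the cell types of the aortic arch of atherosclerotic mice. The genes are listed by name and the rule uses no measured value, but the list was chosen with earlier results of these data known. It holds genes of antiviral effectors, nucleic acid sensors, transcription factors, GTPases and chemokines. Of the 44 genes, 43 had a column among the 26189 gene columns of the deposited tables, and Mx2 was not analysed here.

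The study is about serum amyloid A3, an acute-phase protein encoded by Saa3, in immune cells of the aorta during atherosclerosis. Female mice, 12 weeks old, received a single injection of an AAV vector used to induce atherosclerosis, and ate a Western diet for 18 weeks. Live cells positive for CD45, the surface mark of leukocytes, were sorted from digested aortic arches and profiled on a BD Rhapsody cartridge, a microwell system that counts molecules per cell. Of 5 samples in the series, this 1 is described, and the 4 samples of bone-marrow-derived macrophages were not analysed here.

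The sample mixes 2 pools of cells, each under its own sample tag: C57BL/6J wild-type mice, and mice of the strain C57BL/6N-Saa3tm1.1(KOMP)Vlcg/MbpMmucd, labelled Saa3-/-. Both pools had the same virus, diet, sex and age, and the mice are described as littermates, although the strain labels name different substrains. The number of mice behind a pool is not given in the labels, and the tag is tied to a genotype only by the deposited table's name. With 1 pool per genotype there is no replicate and no test between genotypes: every difference below is one between 2 pools of cells, and every interval covers counting error only.

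Of 1743 cells, 1656 were kept, 833 in the pool labelled wild-type and 823 in the pool labelled Saa3-/-, with a median of 6415 and 4698 molecules per cell, and the pools shared 0 cell indices. Summed over all cells, the level of Saa3 went against the labels. In the pool labelled wild-type 1079 molecules (148 CPM, counts per 1000000 molecules) were counted, and 1268 (242 CPM) in the pool labelled Saa3-/-. In the latter, 2 cells held 1124 of the 1268, and its other cells together held fewer than the pool labelled wild-type. A cell was named by its own molecules of fixed marker genes, and the names end in -like for that reason. Of 16 types with markers, 7 had at least 30 cells in each pool. They include 150 fibroblast-like and 174 smooth muscle-like cells, which a CD45 sort should remove. The level of Ptprc, which encodes CD45, was 132 CPM in the pool labelled wild-type and 77.0 in the pool labelled Saa3-/- in fibroblast-like cells, 96.5 and 147 in smooth-muscle-like cells, and 830 and 801 in macrophage-like cells.

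As background, type I interferons signal through the receptor chains IFNAR1 and IFNAR2 and the kinases JAK1 and TYK2 to a transcription factor complex that includes STAT2 and IRF9 and binds the interferon-stimulated response element in promoters. Interferon gamma signals through its own receptor and acts strongly on guanylate-binding proteins and on CXCL9. In arteries with atherosclerosis, a macrophage state marked by these genes is known beside resident and foamy, lipid-laden macrophages.

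Promoters of 33 of the 44 genes were in the RefSeq table of GRCm38.p6, as 250 bases before the start of transcription. A core of the response element was searched as TTTC, then 2 bases of any kind, then TTTC, on both strands, with overlapping matches allowed. It was found in 17 of the 33 genes (51.5%) and in 936 of 27025 genes of the table (3.46%). The gamma-type element TTCNNNGAA was found in 8 of the 33 (24.2%) and in 8.13% of all genes, and 5 of the 33 held both motifs. A match is a description of letters and not a site shown to be bound. The 5 promoters below were chosen, with values seen, among genes with a match that were past a 2-fold difference between the pools in at least 1 cell type, and capitals mark the matches to the core on either strand. Isg15 (chr4:156200819-156201068, minus strand) has 3 overlapping matches, Ifit3 (chr19:34583279-34583528, plus strand) has 2, and Rsad2 (chr12:26456453-26456702, minus strand), Gbp2 (chr3:142620413-142620662, plus strand) and Cxcl10 (chr5:92348890-92349139, minus strand) have 1 each.
Isg15: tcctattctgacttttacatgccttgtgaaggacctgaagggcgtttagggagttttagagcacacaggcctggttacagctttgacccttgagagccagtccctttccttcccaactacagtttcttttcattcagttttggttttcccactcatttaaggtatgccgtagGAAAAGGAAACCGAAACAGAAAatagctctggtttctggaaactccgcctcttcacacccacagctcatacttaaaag
Ifit3: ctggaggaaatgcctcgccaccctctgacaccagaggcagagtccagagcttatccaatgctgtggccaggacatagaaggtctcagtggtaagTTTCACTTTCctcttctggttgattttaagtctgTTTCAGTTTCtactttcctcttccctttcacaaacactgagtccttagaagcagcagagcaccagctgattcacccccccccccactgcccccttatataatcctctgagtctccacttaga
Rsad2: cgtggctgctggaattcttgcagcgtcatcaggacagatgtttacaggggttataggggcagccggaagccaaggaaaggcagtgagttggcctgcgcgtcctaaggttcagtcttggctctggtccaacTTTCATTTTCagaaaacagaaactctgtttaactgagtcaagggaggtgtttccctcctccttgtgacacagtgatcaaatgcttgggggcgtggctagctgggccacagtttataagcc
Gbp2: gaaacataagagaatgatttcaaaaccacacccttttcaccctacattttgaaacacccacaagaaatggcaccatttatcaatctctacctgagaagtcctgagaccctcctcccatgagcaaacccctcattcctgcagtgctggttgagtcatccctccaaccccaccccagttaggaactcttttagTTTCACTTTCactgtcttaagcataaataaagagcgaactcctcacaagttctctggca
Cxcl10: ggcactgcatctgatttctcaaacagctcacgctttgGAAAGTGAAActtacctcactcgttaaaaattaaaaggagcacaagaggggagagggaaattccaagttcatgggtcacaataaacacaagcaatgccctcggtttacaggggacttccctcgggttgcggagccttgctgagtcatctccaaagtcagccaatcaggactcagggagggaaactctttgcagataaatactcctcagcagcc

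The first match starts 78 bases before the RefSeq transcription start in Isg15, 156 in Ifit3, 120 in Rsad2, 59 in Gbp2 and 213 in Cxcl10. For Gbp2, the GENCODE annotation starts the gene at 142620602, inside the window shown, and the match lies past that start. In macrophage-like cells, the 17 genes with a match had a median log2 ratio between the pools of -0.75 and the 16 without one had -0.72. The ratios with a match ran from -2.32 to -0.31 and those without from -6.84 to 0.05, so the ranges overlapped. In fibroblast-like cells the medians were -0.67 (15 genes) and -1.04 (13 genes). Ifit2, Cmpk2, Irf7, Ifi44 and Cxcl9 had no match in these windows.

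By position, 7 genes each lie on chromosomes 5 and 11. The IFIT genes are all on chromosome 19 and the 4 listed guanylate-binding protein genes on chromosome 3. Some share long stretches of transcript with other genes, and reads there could be split between copies. Ifit3 shares 51.2% of its 50-base stretches with Ifit3b, and Oas1a shares 57.6% with Oas1g. Values of these genes are uncertain for that reason, and to a lesser degree those of Ifi204, where 20.0% is shared with related genes.

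All 43 genes together made up 19567 molecules in the pool labelled wild-type (2684 per 1000000 molecules of all genes, CPM) and 10708 in the pool labelled Saa3-/- (2047 CPM). Molecules are not scaled by gene length, so genes are compared between cells and pools and not with each other. Ifi27l2a, which encodes a small interferon-induced protein, held 19.5% of these molecules.

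In the pool labelled wild-type the level of the list was 3995 CPM (3917 to 4073, exact Poisson 95% interval) in macrophage-like cells, 3358 in monocyte-like, 2581 in B-cell-like, 2426 in fibroblast-like, 1882 in T-cell-like, 1710 in dendritic-cell-like and 852 in smooth-muscle-like cells. In the pool labelled Saa3-/- the order was monocyte-like (3342 CPM), macrophage-like (2583; 2500 to 2669), B-cell-like (2385), T-cell-like (1796), fibroblast-like (1442), dendritic-cell-like (1409) and smooth-muscle-like (747). Smooth-muscle-like cells were lowest in both pools, and macrophage- and monocyte-like cells the 2 highest. Macrophage-like cells came first in the pool labelled wild-type and second in the pool labelled Saa3-/-. The intervals of fibroblast- and dendritic-cell-like cells overlapped in the pool labelled Saa3-/-, as did those of macrophage- and B-cell-like cells, the latter at 2241 to 2536. In the pool labelled wild-type the intervals of B-cell- and fibroblast-like cells overlapped, as did those of T-cell- and dendritic-cell-like cells, so their order is not settled beyond counting error. The place of B-cell-like cells in that pool depended on cells that also passed another lineage's gate: without them the level was 1417 CPM, and it was 1691 with cells grouped by whole profiles.

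**Figure D1:**
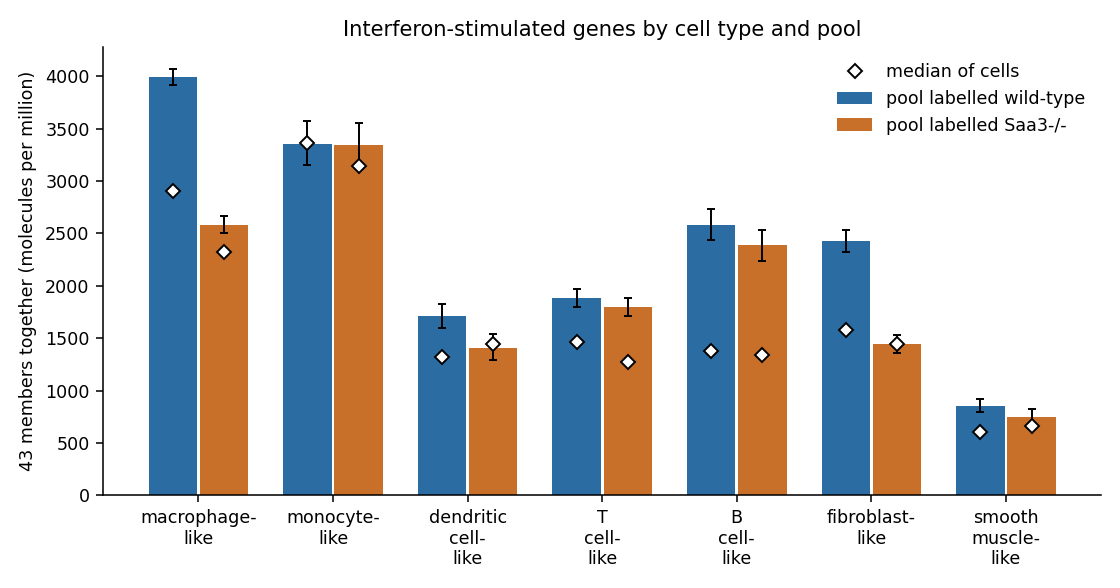
Molecules of the 43 interferon-stimulated genes in CPM (y axis) in 7 cell types (x axis) in the pool labelled wild-type (blue bars) and the pool labelled Saa3-/- (orange bars); whiskers are exact Poisson 95% intervals for counting error and white diamonds the median over cells. Macrophage-like cells (3995 and 2583) and fibroblast-like cells (2426 and 1442) show the widest gaps between bars, and in both the diamonds lie closer together than the bars.

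Types with fewer than 30 cells in a pool were not compared gene by gene. Neutrophil-like cells, 8 in the pool labelled wild-type and 16 in the pool labelled Saa3-/-, had 3694 CPM (2943 to 4580) and 8047 CPM (7361 to 8779), the second being the highest level of any type in either pool. Its 506 molecules came from 42 of the 43 genes, and the highest cell held 10.3% of them. The 8 cells of the pool labelled wild-type gave 21 genes. The intervals do not overlap, and the level was higher in the pool labelled Saa3-/-, whereas in macrophage-like cells it was lower.

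Single genes had their own distribution over cell types. Only 15 of the 43 had the same highest type in both pools, and for 2 of these the interval lay apart from that of the next type in both pools. Igtp, an immunity-related GTPase, was highest in T-cell-like cells, with 70.3 CPM in the pool labelled wild-type and 68.3 in the pool labelled Saa3-/-, against 25.7 in macrophage-like cells and 25.6 in B-cell-like cells, the next types. Cxcl10, a chemokine that draws CXCR3-bearing T cells, was highest in macrophage-like cells, at 170 and 101 CPM. Iigp1, a GTPase that attacks the vacuoles of intracellular parasites, was highest in fibroblast-like cells in both pools (105 and 32.8 CPM), as were Ifit3 (97.5 and 38.5) and its near copy Ifit3b. Oasl1, a 2-5A synthetase-like protein, was highest in macrophage-like cells in both pools (128 and 133 CPM). In the pool labelled wild-type macrophage-like cells were highest for 18 genes and monocyte-like cells for 8. For the pool labelled Saa3-/- the figures were 4 and 16.

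The widest gap between the pools by molecules lay in macrophage-like cells. The list had 10090 molecules in 228 cells of the pool labelled wild-type and 3622 in 177 cells of the pool labelled Saa3-/-. The log2 ratio, with the pool labelled Saa3-/- as numerator, was -0.63 (-0.68 to -0.57), a level 1.55-fold lower in that pool. The summed Saa3 level of that pool went against its label, but this rests on 2 cells that held 1124 of its 1268 Saa3 molecules. Of the 43 genes, all with at least 20 molecules, 42 lay below 0. The median ratio of the genes was -0.71, against 0.04 for all 10325 genes with as many molecules. A gene is counted past the limit where its ratio is at least 1 in size, a 2-fold difference, with at least 20 molecules over both pools. On that rule 17 of the 43 genes (39.5%) were lower in the pool labelled Saa3-/- and 0 were higher, against a background of 2.13% of all genes lower and 2.62% higher. Because the list was chosen with earlier results of these data known, these shares describe the pools and are not an independent test.

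The IFIT family, proteins that bind viral RNA lacking self marks, had 4 of 4 genes past the limit, with a median ratio of -1.71. Ifit2 had 149 molecules (59.0 CPM) in the pool labelled wild-type and 10 (7.13 CPM) in the pool labelled Saa3-/-, a log2 ratio of -2.98 (-4.14 to -2.13). Its molecules were in 28 cells of the first pool, the highest holding 31, and in 10 cells of the second with 1 each. Ifit3 had 133 and 21 molecules (-1.79; -2.55 to -1.14) and Ifit1 99 and 19 (-1.50; -2.32 to -0.81). For Ifit3b, 19 and 3 molecules were counted (-1.63; -4.21 to -0.05). The interval of the ratio lay below 0 for all 4 genes. In each case 5 cells held between 48.5% and 73.7% of the gene's molecules in the pool labelled wild-type.

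All 3 genes around ISG15, a ubiquitin-like protein that is attached to other proteins, were past the limit. Isg15 itself had 193 and 48 molecules (76.4 and 34.2 CPM; log2 ratio -1.15). Usp18, the protease that removes ISG15 and damps the interferon receptor, had 72 and 8 molecules (-2.24; -3.59 to -1.27). Herc6, the main ISG15 ligase of the mouse, had 102 and 25 (-1.16).

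Among 8 other antiviral effectors, 4 were past the limit. Rsad2, or viperin, which makes a chain-terminating nucleotide, had 231 and 46 molecules (-1.47; -1.97 to -1.02). Cmpk2, its genomic neighbour and a nucleotide kinase of mitochondria, had 98 and 14 (-1.91; -2.88 to -1.14). Mx1, a dynamin-like GTPase, had 75 and 14 (-1.53), and Isg20, an exonuclease, 80 and 18 (-1.27). Bst2 or tetherin, which holds budding virus at the cell surface, had 598 and 221 molecules, a smaller ratio of -0.58 (-0.82 to -0.36). Trim30a (-0.46), Parp14 (-0.65) and Rtp4 (-0.87) were also inside the limit.

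The GTPase group split. Gbp2, a guanylate-binding protein that coats intracellular pathogens, had 288 and 43 molecules (114 and 30.7 CPM; -1.88, -2.39 to -1.43). Gbp5, which promotes inflammasome assembly, had 49 and 5 (-2.32; -4.13 to -1.12). The other 5 had ratios between -0.65 (Gbp3) and -0.31 (Irgm1), and among them Igtp, Irgm1 and Iigp1 had intervals that include 0. Iigp1 counted 69 and 25 molecules, and a single cell held 20 of the 25.

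Of the chemokines, Cxcl9 was counted 103 times in the pool labelled wild-type (40.8 CPM) and 0 times in the pool labelled Saa3-/-. With 3 molecules as the floor of the second pool, the level was at least 19.1-fold lower there. The 103 molecules lay in 8 cells, and 5 cells held 99 of them, so this gap rests on few cells. Cxcl10 had 430 and 142 molecules (-0.75; -1.03 to -0.47), inside the limit, and 5 cells held 49.8% of the 430.

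The sensors of nucleic acids were nearer to each other. Zbp1, which senses Z-form nucleic acids and can trigger cell death, was the 1 past the limit of 5, with 183 and 35 molecules (-1.52; -2.10 to -1.01). Ifih1 (MDA5), Ddx58 (RIG-I), Dhx58 (LGP2) and Ifi204, a DNA sensor, had ratios from -0.68 to -0.48. Of the 2-5A synthetases, which activate RNase L, and their like proteins, 0 of 5 genes were past it. Oas2 was at -0.71, Oas3 at -0.55, Oasl2 at -0.39 and Oas1a at -0.33. Oasl1, with 324 and 186 molecules, was at 0.05 (-0.22 to 0.31) and was the only gene of the list above 0.

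Transcription factors of the response gave 1 past the limit. Irf7, which amplifies type I interferon production, had 369 and 93 molecules (146 and 66.3 CPM; -1.13, -1.48 to -0.81). Stat2 was at -0.87 (195 and 59 molecules), while Irf9 (-0.34) and Irf1 (-0.32) were closer to 0. Of the remaining induced genes, Ifi44 had 68 and 9 molecules (-2.00; -3.26 to -1.06). Xaf1, Ifi47 and Ifi35 were at -0.74, -0.70 and -0.38, and Ifi27l2a, with 2058 and 986 molecules, at -0.21 (-0.32 to -0.10).

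**Figure D2:**
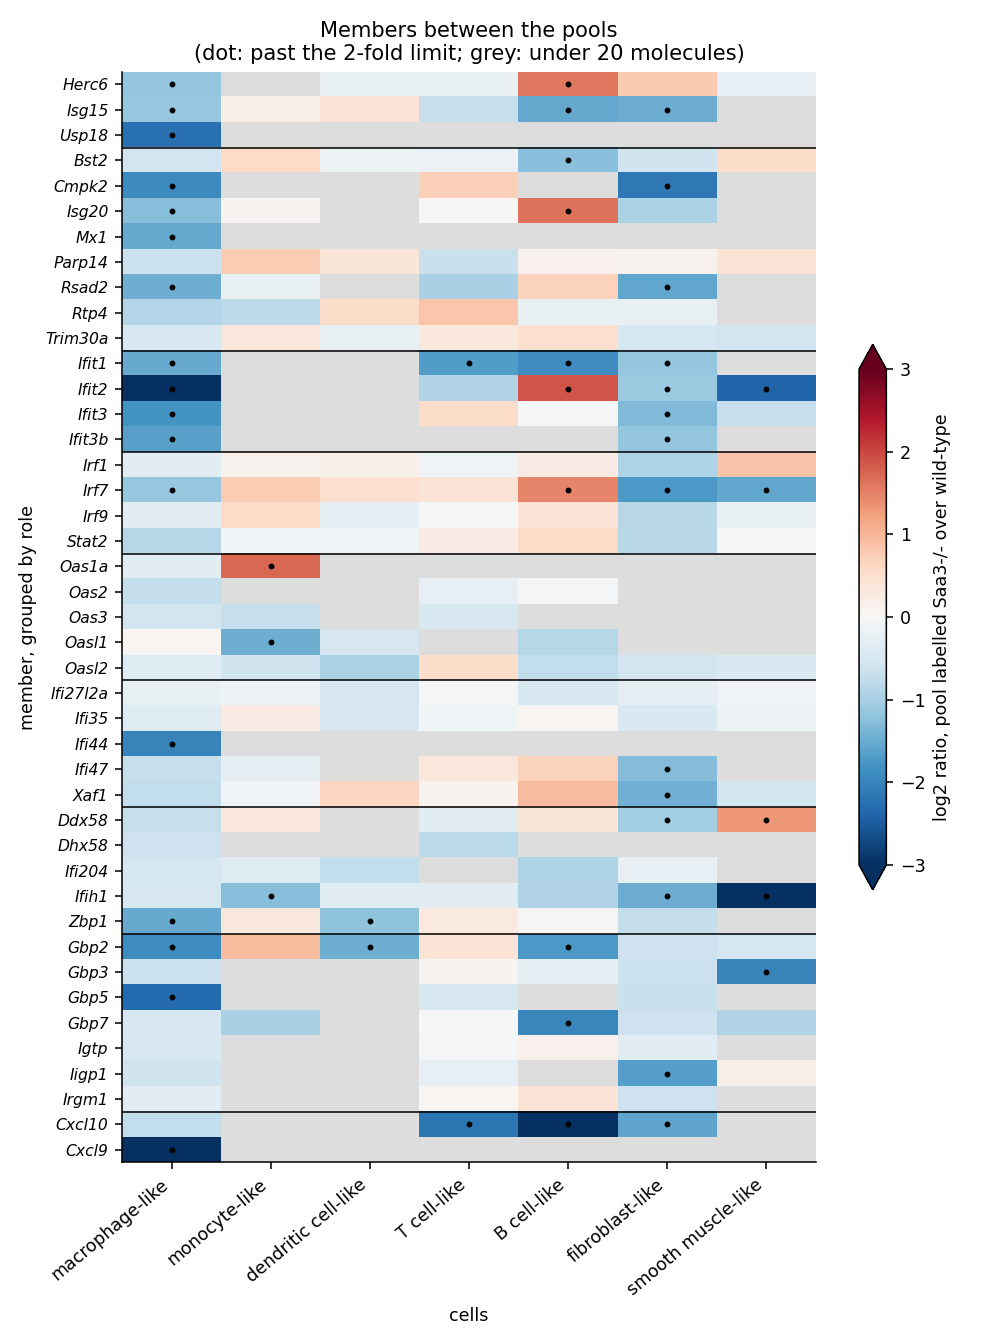
Log2 ratio of Saa3-/- over wild-type, as the pools are labelled (colour, clipped at -3 and 3) for each of the 43 genes (rows, ordered by role) in 7 cell types (columns); black dots mark ratios of at least 1 in size, and grey cells had under 20 molecules. The macrophage-like column is blue for 42 of 43 genes and the fibroblast-like column for 32 of 34, while the other columns hold both colours.

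The machinery upstream of the list was also read in macrophage-like cells, from genes listed by role. None of 9 signalling genes, 5 measured receptor genes, 15 genes of interferon induction and 1 measured ligand gene was past the limit. Receptor genes were level between the pools: Ifnar1 had a log2 ratio of 0.01, Ifnar2 of 0.05, Ifngr1 of 0.05 and Ifngr2 of -0.07. Jak1 and Stat3 were at -0.005 and -0.006. Irf3, a factor that starts interferon transcription, lay above 0 with 53 and 55 molecules (0.90; 0.33 to 1.47). Of the ligands, Ifnb1 had 1 and 2 molecules and Ifng 3 and 1, too few to compare.

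Macrophage-like cells of the pools differed in more than these genes. Lipid-laden markers such as those of foamy macrophages stood at 2825 CPM in the pool labelled wild-type and 6365 in the pool labelled Saa3-/-, over 6 of 6 markers found in both. Resident-type markers stood at 1729 and 1330, also with 6 of 6 found. A median of 8999 and 6361 molecules per cell was read. Genes that respond to tissue dissociation were close, at 6512 and 6685 CPM over 12 of 12 genes. Cells that also passed the gate of another lineage were 25% and 18.1%. Their part in the ratio was not tested, apart from the values within ranges of cells, at equal depth and without such cells that follow.

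Macrophage-like cells were divided by fixed markers into a resident-type range, a lipid-laden range and the rest. In the resident-type range, 41.2% of the cells of the pool labelled wild-type and 27.7% of the pool labelled Saa3-/-, the list stood at 4338 and 3963 CPM, a log2 ratio of -0.13 (-0.22 to -0.05). Here 5 of 40 genes were lower past the limit, against 3.96% of all genes: Ifit2, Isg20, Ifi44, Iigp1 and Gbp2. None was higher, against 4.98%. In the lipid-laden range the levels were 3819 and 1840 CPM (-1.05; -1.15 to -0.95), and 23 of 39 genes were lower, against 4.26% of all genes, and 0 were higher, against 2.80%. The remaining cells had 3572 and 2499 CPM (-0.52; -0.62 to -0.41), with 11 of 36 genes lower (background 3.88%) and 1 higher, Iigp1 (background 4.33%). Ifit2 and Gbp2 were past the limit in all 3 ranges. Of the upstream genes of interferon induction, 2 of 12 were lower in the resident-type range, Ikbke (59 and 3 molecules, -2.44) and Mb21d1 (34 and 4, -1.29). In the lipid-laden range 1 of 13 was lower and 1 higher, and in the remaining cells 1 of 10 was lower. In signalling, 1 of 8 genes was lower in the remaining cells.

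Medians over cells differed from the sums by range. In the lipid-laden range the median cell had 1531 CPM in the pool labelled wild-type and 1432 in the pool labelled Saa3-/-, and 4 cells held 46.7% of the list's molecules in the first pool. For the resident-type range the medians were 3568 and 3781, the second being higher. In the remaining cells they were 2856 and 2134, a log2 difference of -0.42 against -0.52 by sums. Over all macrophage-like cells they were 2901 and 2320, a log2 difference of -0.32 where the sums gave -0.63.

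**Figure D3:**
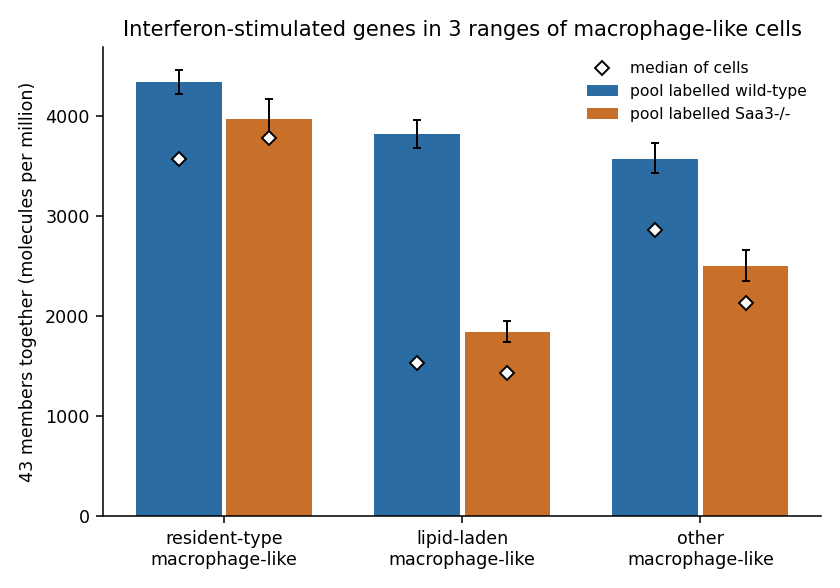
Molecules of the 43 genes in CPM (y axis) in 3 ranges of macrophage-like cells (x axis) in the pool labelled wild-type (blue) and the pool labelled Saa3-/- (orange); whiskers are exact Poisson 95% intervals and white diamonds the median over cells. In the lipid-laden range the bars stand at 3819 and 1840 while the diamonds stand at 1531 and 1432.

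Cells with a very high share of these molecules were counted next, with a limit of 1% of a cell's molecules that was chosen after the values were seen. Among macrophage-like cells of the pool labelled wild-type, 15 of 228 (6.58%, exact binomial 95% interval 3.73 to 10.6) reached it and held 30.1% of the list's molecules. Of the pool labelled Saa3-/- it was 1 of 177 (0.565%, 0.0143 to 3.11), with 2.76% of the molecules. These 2 intervals count single cells within each pool and cover no variation between mice. They do not overlap at this limit. At a limit of 0.5% they do: 44 of 228 cells (19.3%, 14.4 to 25.03) with 49.6% of the molecules and 24 of 177 (13.6%, 8.88 to 19.5) with 26.3%. The 15 cells expressed between 19 and 40 of the 43 genes, with a median of 33. Of the 15, 8 were in the resident-type range, 5 in the lipid-laden range and 2 in the rest. Of these cells 3 also passed the gate of another lineage. The highest cell by share was resident-type, with 164 list molecules among 5000 (3.28%), and the next 2, both lipid-laden, had 623 among 26182 and 445 among 19303. Rsad2, Cxcl10, Ifit2 and Ifi204 were the leading genes of the last of these. In B-cell-like cells the counts ran the other way: 0 of 58 cells in the pool labelled wild-type, which allows a share of up to 6.16%, and 3 of 105 in the pool labelled Saa3-/- (2.86%, 0.593 to 8.12), holding 28.04% of that type's molecules. At 0.5% these were 2 of 58 (3.45%) and 4 of 105 (3.81%).

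Leaving out the 5 cells with most of these molecules in each pool brought the log2 ratio to -0.48, and 40 of 42 genes lay below 0, with a median of -0.52. Past the limit were 11 genes, against 2.19% of all genes in the same cells. All 11 were among the 17: Isg20, Ifit1, Ifit2, Ifit3, Irf7, Usp18, Ifi44, Zbp1, Gbp2, Gbp5 and Cxcl9. Cmpk2 went from -1.91 to -0.83, Rsad2 from -1.47 to -0.71 and Isg15 from -1.15 to -0.60, all inside the limit. Gbp2 moved the other way, from -1.88 to -2.17. Thinned to 2500 molecules a cell, 218 and 166 cells had a mean of 9.91 and 7.25 list molecules (median 7 and 5), a log2 ratio of -0.45, and 8 genes were past the limit. At this depth no share over all genes was computed.

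**Figure D4:**
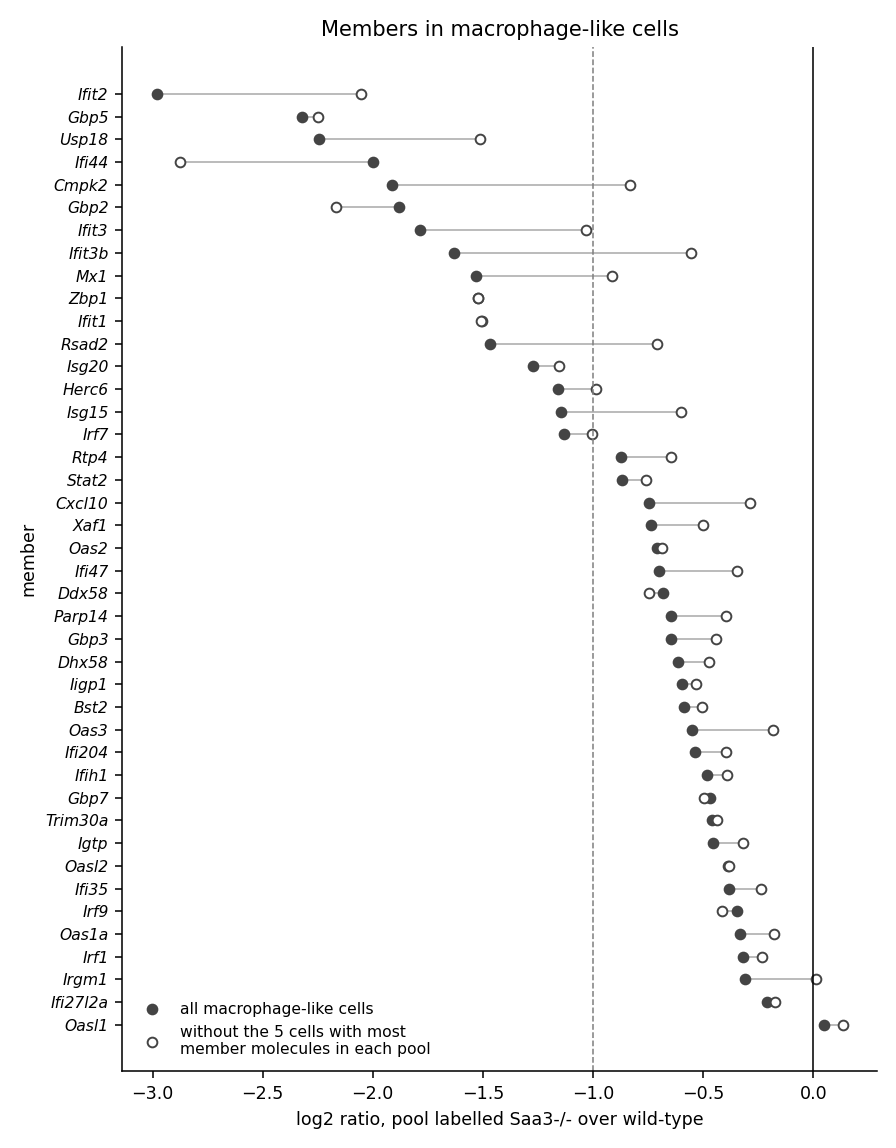
Log2 ratio of Saa3-/- over wild-type, as the pools are labelled (x axis), for 42 genes in macrophage-like cells (y axis, ordered by ratio), with all cells (filled) and without the 5 cells with most molecules of the list in each pool (open); the dashed line marks a 2-fold lower level, and Cxcl9, at 0 in one pool, is not drawn. Cmpk2, Mx1, Rsad2, Herc6 and Isg15 cross the dashed line, while Zbp1, Ifit1 and Gbp5 hardly move. Ifit3b also crosses it, but without those cells it had 9 and 3 molecules, under the 20 needed for comparison.

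Fibroblast-like cells had the ratio farthest from 0 of the 7 types by sums. There were 2190 list molecules in 82 cells of the pool labelled wild-type and 1012 in 68 cells of the pool labelled Saa3-/-, a log2 ratio of -0.75 (-0.86 to -0.64). Of 34 genes with at least 20 molecules, 32 lay below 0, with a median of -0.83 against -0.02 over all genes. Those lower past the limit were 14 (41.2%), against 3.65% of all genes, and 0 were higher, against 3.60%. Median cells were close, at 1575 and 1444 CPM.

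The genes past the limit were led by Cmpk2, with 31 and 5 molecules (-2.15; -3.99 to -0.89), Irf7 with 40 and 9 (-1.73; -3.02 to -0.72) and Iigp1 with 95 and 23 (-1.66; -2.41 to -1.01). Cxcl10 had 36 and 9 molecules (-1.58), Rsad2 28 and 7 (-1.56), Ifih1 41 and 11 (-1.49), Isg15 59 and 16 (-1.49), Xaf1 57 and 16 (-1.44) and Ifit3 88 and 27 (-1.32). Ifi47, Ifit3b, Ifit1, Ifit2 and Ddx58 had ratios from -1.29 to -1.04. Past the limit were 8 genes in both fibroblast- and macrophage-like cells: Cmpk2, Ifit1, Ifit2, Ifit3, Ifit3b, Irf7, Isg15 and Rsad2. They are 57.1% of the fibroblast list and 47.1% of the macrophage list, with 34 genes compared in both types. The overlap over all genes was not computed, so the size of this overlap cannot be judged. Without the 5 highest cells of each pool, only Irf7 of these genes stayed past the limit in both types. Gbp2 was within the limit here, with 109 and 55 molecules (-0.62), and Herc6 (0.79) and Parp14 (0.11) lay above 0. Of the upstream genes, 1 of 9 in signalling was past the limit, Socs1, a feedback inhibitor, with 33 and 7 molecules (-1.80; -3.29 to -0.67), and 2 of 9 in interferon induction, Tlr3 (23 and 6; -1.49) and Irf8 (23 and 8; -1.10). The genes of the list with under 20 molecules were Oasl1, Oas1a, Oas2, Oas3, Usp18, Mx1, Ifi44, Dhx58 and Cxcl9.

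Part of the molecules lay in few cells. In the pool labelled wild-type 2 of 82 cells reached 1% and held 20.4% of the list's molecules, and in the pool labelled Saa3-/- 0 of 68 did, which allows a share of up to 5.28%. One of the 2 had 388 list molecules among 18399, from 40 of the 43 genes, and also passed the gate of another lineage. Ifit3 was its leading gene, and the highest cell held 50 of the type's 88 Ifit3 molecules. Macrophage markers stood at 1041 CPM in fibroblast-like cells of the pool labelled wild-type and at 610 in the pool labelled Saa3-/-, with 7 of 7 markers found in both. Lipid-laden macrophage markers ran the other way, at 1193 and 3004 CPM, and resident-type markers stood at 1344 and 970 CPM. The part of these markers in the ratio was not tested. Of the cells, 34.2% and 26.5% also passed another lineage's gate. Without such cells 6 genes were past the limit, with no share over all genes computed, and the log2 ratio was -0.33. Without the 5 highest cells of each pool it was -0.48, and 24 of 31 genes lay below 0, with a median of -0.54. Of these genes 5 were past the limit (background 3.74%), of which Irf7, Ifih1, Xaf1 and Cxcl10 were among the 14 and Irf1 was not. Ifit3 then stood at 0.23 with 29 and 25 molecules.

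**Figure D5:**
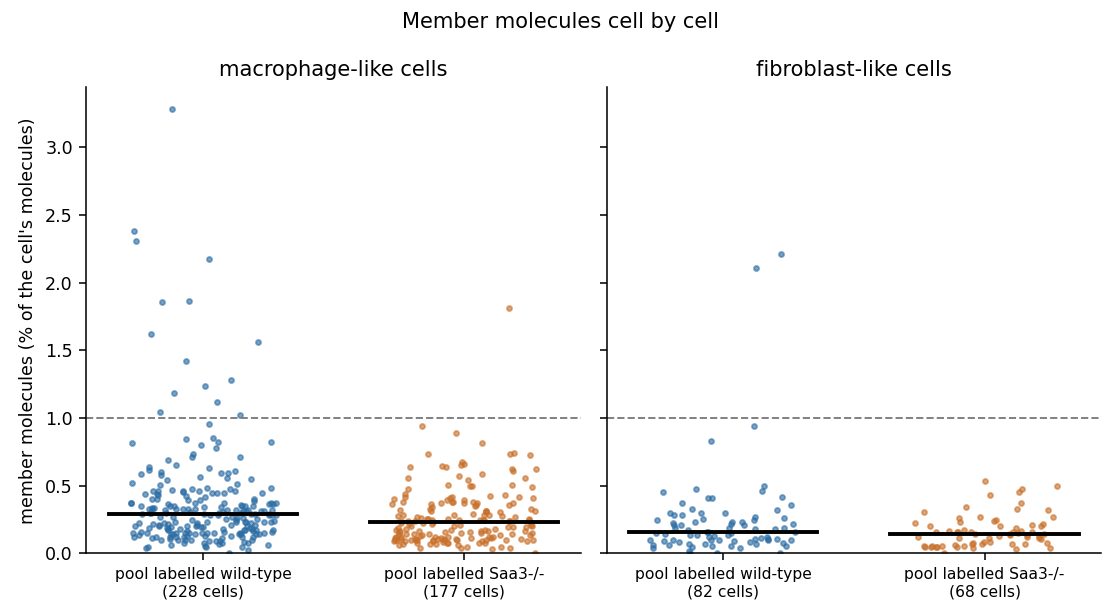
Share of each cell's molecules that came from the 43 genes (y axis, percent) in macrophage-like cells (left) and fibroblast-like cells (right) of the pool labelled wild-type (blue) and the pool labelled Saa3-/- (orange); each point is a cell, black bars are medians and the dashed line is the 1% limit. Above the line lie 15 and 1 macrophage-like cells and 2 and 0 fibroblast-like cells, and the black bars correspond to 2901 and 2320 CPM on the left and 1575 and 1444 CPM on the right.

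In monocyte-like cells, 34 and 37 in number, the list was level: 1019 and 1026 molecules, 3358 and 3342 CPM, a log2 ratio of -0.01 (-0.13 to 0.12). That interval does not overlap the interval of macrophage-like cells, and the difference between the types was not tested. Of 25 genes, 2 were lower (Oasl1 with 28 and 10 molecules, -1.46; Ifih1 with 32 and 13, -1.28), against 5.38% of all genes, and 1 was higher, against 5.82%. The latter was Oas1a, with 5 and 18 molecules (1.73; 0.35 to 3.62). Irf7 had 35 and 60 molecules (0.75; 0.14 to 1.41) and a single cell of the pool labelled Saa3-/- held 17 of the 60. Thinned to 2500 molecules a cell, 0 genes were past the limit either way. The 4 IFIT genes together had 6 and 12 molecules, too few for any to be compared. Of the monocyte-like cells, 52.1% fell into a cluster of that name when cells were grouped by whole profiles, the lowest share of the 7 types.

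T-cell-like cells, 189 and 236, had 1882 and 1796 CPM (-0.07; -0.16 to 0.03). Of 35 genes 2 were lower, against 2.90% of all genes, and 0 higher, against 3.02%. Cxcl10 had 79 and 17 molecules (-2.18; -3.07 to -1.45), with 33 in 1 cell, and Ifit1 had 36 and 11 (-1.67; -2.84 to -0.71), with 23 in 1 cell. Lower genes were 5 without cells passing another lineage's gate and 1 when the 5 highest cells per pool were left out. No share over all genes was computed under either setting. Ifng, the gene of interferon gamma, was counted 41 and 21 times in these cells (-0.95; -1.80 to -0.17). By sums, ranges of T-cell-like cells did not share a direction. Naive-type cells stood at 1556 and 2124 CPM (0.45; 0.28 to 0.62), with 0 genes lower (background 5.55%) and 3 of 19 higher (5.68%), Stat2, Trim30a and Rtp4. Cytotoxic cells stood at 1660 and 1927 (0.22; 0.05 to 0.39), with 2 of 21 genes lower (background 3.88%), Parp14 and Cxcl10, and 2 higher (4.96%), Rtp4 and Gbp2. The remaining T-cell-like cells stood at 2401 and 1279 (-0.91; -1.08 to -0.74), with 9 of 26 lower (background 4.06%) and 0 higher (5.60%). There the top 5% of cells, 4 in number, held 34.8% of the molecules in the pool labelled wild-type. The highest cell, with 176 list molecules among 5126, gave 33 of the 43 genes. Median cells lay closer than the sums, at 1368 and 1426 CPM in naive-type and 1592 and 1662 in cytotoxic cells. In the remaining cells they were 1454 and 1124. Of naive-type cells in the pool labelled Saa3-/-, the top 5%, 5 in number, held 20.8% of the molecules.

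B-cell-like cells, 58 and 105, had 2581 and 2385 CPM (-0.11; -0.24 to 0.01), and genes lay past the limit both ways. Of 32 genes 6 were lower, against 9.90% of all genes, and 4 were higher, against 5.96%. The lower ones were Cxcl10 with 23 and 2 molecules (-3.11; -6.53 to -1.39), Gbp7 with 31 and 7 (-1.95), Ifit1 with 33 and 8 (-1.86), Gbp2 with 55 and 15 (-1.72), Isg15 with 45 and 14 (-1.53) and Bst2 with 76 and 29 (-1.25). Higher were Ifit2 with 7 and 25 (1.89), Isg20 with 6 and 18 (1.63), Herc6 with 11 and 31 (1.57) and Irf7 with 28 and 72 (1.47), of which 1 cell held 35. Macrophage markers stood at 5196 CPM in B-cell-like cells of the pool labelled wild-type and 1565 in the pool labelled Saa3-/-, and 43.1% and 18.1% of the cells also passed another lineage's gate. Without such cells the list's log2 ratio was 0.49, 0 genes were lower past the limit and 2 were higher. Without the 5 highest cells of each pool, 3 were lower and 1 higher. Neither setting has a share over all genes beside it.

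Dendritic-cell-like cells, 41 and 32, had 1710 and 1409 CPM (-0.28; -0.44 to -0.12), while their median cells had 1322 and 1445. Of 19 genes 2 were lower, against 5.35% of all genes, and 0 higher, against 3.67%: Gbp2 with 19 and 4 molecules (-1.47; -3.62 to -0.02) and Zbp1 with 23 and 6 (-1.21; -2.88 to 0.04). Ifit3b had 0 molecules in both pools. When cells were grouped by whole profiles, the ratio was 0.09. Macrophage markers stood at 3203 and 2200 CPM in these cells, and 48.8% and 28.1% of them also passed another lineage's gate. Without such cells 0 genes were past the limit. The macrophage gate counts as the same lineage as the dendritic one, so passing both did not lead to a cell being left out.

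Smooth-muscle-like cells, 107 and 67, had 852 and 747 CPM (-0.19; -0.37 to -0.01), with a median of 3 genes of the list per cell in either pool. Of 20 genes, 4 were lower, against 3.59% of all genes. They were Ifih1 with 23 and 1 molecules (-3.09; -9.01 to -1.02), Ifit2 with 24 and 2 (-2.41; -5.83 to -0.69), Gbp3 with 18 and 2 (-2.00; -5.44 to -0.23) and Irf7 with 24 and 4 (-1.56; -3.69 to -0.16). Ddx58 was the 1 higher, against 2.73% of all genes, with 17 and 23 molecules (1.31; 0.35 to 2.31). Macrophage markers stood at 938 and 573 CPM in these cells. Their part in the ratios was not tested, and without cells passing another lineage's gate the list's ratio was 0.08, with 0 genes lower and 2 higher past the limit. Thinned to 2500 molecules a cell, 0 were lower. The share over all genes was not computed under either setting.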

How the data were processed

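Single cells of sorted aortic arches were analysed from 2 deposited tables, 1 per sample tag, that hold counts of molecules per gene and cell. Per the file headers, the authors made them with the BD Rhapsody WTA Analysis Pipeline 1.11.1 on GRCm38, with intronic reads counted and refined cell calling on. The submitters' processing notes also name R 4.3.1 and Seurat 4.3.0. How reads of near-identical genes or of opposite strands were assigned is not given in the sources used here, and intronic reads and overlapping genes can therefore add to a gene's count.

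Cells with mitochondrial genes at most 25% of molecules and at least 200 genes were kept, and 87 cells were removed. No doublet caller was run, and 313 cells that passed the gates of at least 2 lineages were kept and also left out as an alternative. Gates of macrophages, monocytes, dendritic cells and neutrophils counted as the same lineage. So did those of fibroblasts and smooth muscle, those of T and related cells, and those of B and plasma cells. For each type, a cell's marker molecules were compared with the pooled share of those markers in the cells ranked below the median for it. A cell was gated to the type with the highest log2 excess over that share, if at least 1.5 with at least 3 markers found. Macrophage- and T-cell-like cells were divided into ranges at a log2 excess of 1, which are ranges of a score and not types. Grouping by whole profiles (Leiden, 21 clusters) put 89.4% of gated cells in a cluster of the same name.

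Molecules were summed per pool and type and given per 1000000 molecules (CPM). The log2 ratio has the pool labelled Saa3-/- as numerator and the other as denominator, with 0.5 molecules added to each sum. Intervals are exact at 95%. The share of all genes past the limit was computed for all kept cells of each compared type and range. It was also computed for macrophage- and fibroblast-like cells without the 5 highest cells of each pool, and under no other setting. Genes are named where they had at least 20 molecules and a ratio of at least 1 in size, where they were among the 10 with most molecules or had most in their role group, and where they stood at 0. The genes, lists and markers were chosen with earlier results of these data known. The limit of 1% of a cell's molecules, the ranges as alternatives, and leaving out the 5 highest cells for levels and for counts of genes were chosen after seeing the data. Calculations, tested on simulated data, used Python 3.11.15, numpy 2.4.6, pandas 2.3.3, scipy 1.17.1, scanpy 1.11.5, leidenalg 0.10.2 and matplotlib 3.10.9. Gene positions came from GENCODE annotation of GRCm38, and promoters from RefSeq. Some items of the study are not reported here.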

Additional observations from a re-analysis of the deposited data

Results flagged for a closer look

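In 5 genes the ratio between the pools was past the 2-fold limit in opposite directions in 2 cell types. None of these differences between types was tested, since each type has 1 pool per genotype. Isg20 had a log2 ratio of -1.27 in macrophage-like cells and 1.63 in B-cell-like cells, where 1 cell held 7 of 18 molecules in the pool labelled Saa3-/-. Ifit2 was at -2.98 in macrophage-like and 1.89 in B-cell-like cells, with 14 of 25 molecules of that pool in 1 cell. Irf7 was at -1.73 in fibroblast-like and 1.47 in B-cell-like cells, with 35 of 72 in 1 cell. Herc6 was at -1.16 in macrophage-like and 1.57 in B-cell-like cells, and no B-cell-like cell held more than 4 of its 31 molecules. Ddx58 was at -1.04 in fibroblast-like and 1.31 in smooth-muscle-like cells, with 8 of 23 molecules in 1 cell. Without cells passing another lineage's gate, 2 genes of the list were higher past the limit in B-cell-like cells in place of 4. The share over all genes was not computed there.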

How the results depend on the processing

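The log2 ratio of the list in macrophage-like cells, -0.63, lay below 0 under all 15 alternatives: -0.504 with cells grouped by whole profiles, -0.53 without cells passing another lineage's gate, -0.452 thinned to one depth, -0.499 with each cell weighing the same, -0.758 without Ifi27l2a, -0.708 as the median of the genes, and -0.475 with the 5 cells richest in list molecules left out per pool. Within ranges it was -0.13 (resident-type), -0.515 (other) and -1.053 (lipid-laden), and -0.498 with the ranges weighing the same. The 17 genes past the limit became 9 with whole profiles, 8 thinned, 11 without the 5 cells, 31 at a log2 limit of 0.5, and 5 and 11 in the resident-type and other ranges. The share over all genes was 2.19% without the 5 cells, 3.96% in the resident-type range and 3.88% in the other range. It was not computed with whole profiles, thinned or at a limit of 0.5, so those counts have no background. The level of the pool labelled wild-type, 3995 CPM, became 3737, 3825, 3180 and 3418 with whole profiles, without other-lineage cells, without Ifi27l2a and without the 5 cells, and 4618 with mitochondrial, ribosomal, immunoglobulin and list genes left out of the total. That of the pool labelled Saa3-/-, 2583 CPM, became 2899 thinned, 2783 with each cell weighing the same, 1880 without Ifi27l2a, 2458 without the 5 cells and 2983 with that smaller total.

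In fibroblast-like cells the ratio of -0.75 lay below 0 under all 11 alternatives, at -0.332 without other-lineage cells, -0.458 thinned, -0.546 with each cell weighing the same, -0.866 without Ifi27l2a and -0.485 without the 5 cells. The 14 genes past the limit became 6, 3, 7 and 5 under the same settings without Ifi27l2a's, 9 with at least 50 molecules and 27 at a log2 limit of 0.5. Of these settings, the share over all genes was computed only without the 5 cells, at 3.74%. The ratio changed sign in dendritic-cell-like cells with whole profiles (0.087) and in smooth-muscle-like cells without other-lineage cells (0.081). In B-cell-like cells it ran from -0.186 to 0.494 and was below 0 in 6 of 11, in monocyte-like cells in 4 of 11, and in T-cell-like cells in 11 of 11. The cause of these shifts was not tested. No paired analysis was possible because each genotype is 1 pool. Low counts limit what can be compared: 18 of 43 genes in monocyte-like, 24 in dendritic-cell-like and 23 in smooth-muscle-like cells had under 20 molecules.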
